A study of Mus musculus with 17 samples.

Results

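The 26 genes examined here encode the enzymes that build cholesterol from acetyl-CoA, together with SREBP2 (Srebf2), the transcription factor that controls them, and its regulators. They were taken from a list of gene symbols, drawn up with earlier results of these data known, and all 26 were listed and passed the filter on low counts in both the table of high-fat diet (HFD) libraries, which holds 19151 genes, and the table of Western diet (WD) libraries, which holds 24233. Transcript levels came from whole-tissue RNA-seq of male C57BL6 mice that were fed chow and then 16 weeks of HFD or of WD, a high-fat, high-cholesterol diet. The mice were wild type (WT) or lacked NgBR, the product of Nus1, through an albumin-Cre transgene that deletes exon 1 in hepatocytes (N-LKO); other liver cells keep the gene. The groups were WT liver and N-LKO liver under HFD (n = 4 each), and WT liver, N-LKO liver and tumors of N-LKO mice under WD (n = 3 each). The labels do not say which tumor came from which animal, so a tumor and an N-LKO liver may share a mouse; of the animal numbers in the column names, 2 occur in both groups.

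In the mevalonate pathway, acetyl-CoA is turned into mevalonate and then into the isoprenoid farnesyl diphosphate. That molecule is a branch point: squalene synthase takes it toward cholesterol, whereas NgBR and Dhdds, the subunits of cis-prenyltransferase, extend it into dolichol, the lipid carrier of protein glycosylation. When sterols run low in the endoplasmic reticulum, Scap escorts SREBP2 to the Golgi, where it is cleaved into an active factor that turns on nearly every gene of the pathway; when sterols are plentiful, the Insig proteins hold Scap back. A cholesterol-rich diet is well known to lower these transcripts in the liver.

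The targeted gene was checked first. The HFD livers held 88.0 ± 5.89 CPM of Nus1 when WT and 35.0 ± 3.98 CPM when N-LKO (SD, n = 4 each), CPM being counts scaled to a library of 1000000 after TMM normalization. Under WD its level was 94.4 ± 5.58 CPM (WT), 46.7 ± 4.74 CPM (N-LKO) and, for tumors, 35.7 ± 7.59 CPM (SD, n = 3 each). Every N-LKO library was below every WT library of the same diet. Total counts per library ran from 9096110 to 12215784 under HFD and from 15494731 to 20200618 under WD. The hepatocyte markers Alb, Ttr, Apoa1, Tat and Hnf4a were present in all 17 libraries, tumors included, which checks for liver tissue but cannot tell tumor from liver. WT WD replicate 2 had the lowest TMM factor (0.806), and values without it are given for Scap, Insig1, Srebf2, Ebp, Tm7sf2 and Sqle under WD.

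SREBP2 acts on promoters that hold a sterol regulatory element, usually beside a CCAAT box, the site of the factor NF-Y. To set the genes beside their control regions, promoters from 250 bases before to 50 after the start site were taken from RefSeq (GRCm38.p6). Entries were found for 21 of the 26 genes, and Sqle, Fdps, Fdft1, Acat1 and Stard4 had none in that table. The letters TCACNCCAC, a strict form of the sterol element, were searched on both strands and stood in 1.24% of all 32851 promoters and in that of Hmgcs1 among these genes. CCAAT stood in 37.4% of all promoters. At least 1 promoter held it in 19 of the 21 genes, against 43.1% of the 9464 genes with an entry that were tested under HFD; the exceptions were Scap and Acat2. GGGCGG, the GC box, stood in 35.7% of all promoters and in 19 of the 21 genes, against 66.97% of the tested genes. No match of 1 motif overlapped that of another in these promoters. Shown first are Hmgcs1, which held the strict element, and Idi1 and Cyp51, whose transcripts differed widely between livers; Scap, whose promoter held neither the strict element nor CCAAT, stands last. Capitals mark the sterol element and the CCAAT boxes (ATTGG where the box lies on the other strand).
Hmgcs1, chr13:119690101-119690400, plus strand: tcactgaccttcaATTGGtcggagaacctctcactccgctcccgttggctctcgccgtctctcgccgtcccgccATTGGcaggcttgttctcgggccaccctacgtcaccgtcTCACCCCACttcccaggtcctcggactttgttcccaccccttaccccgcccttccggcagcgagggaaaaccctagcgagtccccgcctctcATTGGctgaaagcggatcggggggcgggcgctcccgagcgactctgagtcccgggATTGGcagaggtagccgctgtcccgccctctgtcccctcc
Idi1, chr13:8885356-8885655, plus strand: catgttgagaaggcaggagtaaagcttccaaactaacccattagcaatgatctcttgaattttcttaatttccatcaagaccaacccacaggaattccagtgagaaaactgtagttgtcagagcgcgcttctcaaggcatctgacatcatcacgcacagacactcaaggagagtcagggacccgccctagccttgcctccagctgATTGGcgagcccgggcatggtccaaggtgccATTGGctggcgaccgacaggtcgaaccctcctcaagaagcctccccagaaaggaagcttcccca
Cyp51, chr5:4104648-4104947, minus strand: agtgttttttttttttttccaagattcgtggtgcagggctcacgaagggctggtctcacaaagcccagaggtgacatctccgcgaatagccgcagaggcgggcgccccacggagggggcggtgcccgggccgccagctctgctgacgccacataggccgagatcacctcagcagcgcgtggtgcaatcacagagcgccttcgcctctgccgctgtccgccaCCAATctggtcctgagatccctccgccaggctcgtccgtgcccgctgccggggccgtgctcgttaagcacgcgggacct
Scap, chr9:110333038-110333337, plus strand: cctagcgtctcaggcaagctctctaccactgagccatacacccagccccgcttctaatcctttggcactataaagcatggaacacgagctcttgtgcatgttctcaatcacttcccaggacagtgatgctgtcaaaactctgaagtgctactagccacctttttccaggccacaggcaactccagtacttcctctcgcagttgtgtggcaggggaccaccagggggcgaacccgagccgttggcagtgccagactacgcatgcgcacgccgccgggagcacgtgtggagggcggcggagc

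Levels of the genes relative to each other were compared as TPM, which divides counts by the length of the longest transcript before scaling. In WT HFD livers the highest levels were those of Acat1, the mitochondrial acetyl-CoA thiolase (240 ± 17.01 TPM), Hmgcs1, which makes HMG-CoA (142 ± 33.8 TPM), Sc5d, a late sterol desaturase (135 ± 10.3 TPM), Insig2 (125.7 ± 35.8 TPM) and Ebp, a sterol isomerase (112 ± 11.1 TPM). The SDs of Hmgcs1, Sc5d and Insig2 overlapped, as did that of Ebp with those of Hmgcs1 and Insig2, so these ranks were not resolved. The lowest were Lbr, a sterol reductase of the nuclear envelope (3.29 ± 0.584 TPM), Ggps1, which makes geranylgeranyl diphosphate (3.45 ± 0.438 TPM), and Mvd and Mvk, enzymes of the mevalonate steps (3.73 ± 1.93 and 3.80 ± 0.730 TPM), again not separated beyond their spread (SD, n = 4). Srebf2 itself stood at 12.3 ± 2.36 TPM, and its escort Scap at 25.7 ± 2.86 TPM.

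Whether loss of NgBR changed the pathway under HFD was asked next. None of the 26 genes passed the test between N-LKO and WT livers, where 5.44% of all genes tested did (edgeR quasi-likelihood test, Benjamini-Hochberg adjusted p under 0.05). At an unadjusted p under 0.05 there were 2 of the 26 (Scap and Hsd17b7), against 22.4% of all genes. DESeq2 called 999 of the 13460 genes, the same pair among them. In no gene of the 26 did the genotypes separate without overlap, whereas 7.37% of all genes were higher and 7.41% lower in every N-LKO liver. The fitted fold was below 0 in 20 of the 26 genes and above 0 in 6, with a median log2 fold change of −0.14 against −0.01 over all genes. That median rested on single libraries: it was −0.029 without N-LKO replicate 2, −0.31 without N-LKO replicate 3 and −0.31 without WT replicate 1. The 95% intervals lay within 1 log2 unit of 0 for 18 of the 26, so a change by a factor of 2 was outside them. For Hmgcs1, Mvd, Idi1, Fdps, Sqle, Cyp51, Msmo1 and Hsd17b7 the intervals were wider, and for Sqle, the squalene epoxidase, they ran from −1.68 to 1.43. Cell markers differed between these genotypes too. Of 5 endothelial markers 2 passed, both lower. All 5 endothelial and all 5 macrophage folds were below 0 (medians −0.47 and −0.67). Stellate cell folds were above 0 in 4 of 5 (median 0.91), and hepatocyte folds in 3 of 5. Their part in the values of the 26 genes under HFD was not tested.

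Single livers of the same genotype differed widely for these genes. Sqle stood at 8.01, 39.7, 45.8 and 36.7 CPM in WT HFD replicates 1 to 4 and at 37.5, 13.3, 51.8 and 17.9 CPM in N-LKO replicates 1 to 4. Idi1, the isomerase that makes the dimethylallyl starter unit, stood at 39.6, 98.6, 165 and 121 CPM in the WT and at 115, 44.8, 148 and 53.5 CPM in the N-LKO livers. Cyp51, the lanosterol demethylase, stood at 46.4, 111, 163.9 and 118 CPM in the WT and at 102.2, 57.3, 134 and 65.3 CPM in the N-LKO livers. In all of these WT replicate 1 was the low WT liver and N-LKO replicates 2 and 4 were the low N-LKO livers, and the genotypes overlapped. Idi1 and Cyp51 were picked for this after their values were seen.

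The same livers stood low across most of the pathway. WT HFD replicate 1 was the lowest of the 4 WT libraries for 22 of the 26 genes, against 28.4% of all genes tested, and N-LKO HFD replicate 2 was the lowest of the 4 N-LKO libraries for 17 of the 26, against 30.1%. At the other end, WT replicate 3 was the highest WT library for 15 genes (27.0% of all genes), and N-LKO replicate 3 the highest N-LKO library for 20 (24.1%). Both low libraries were lowest together for 16 of the 26 genes and for 4.88% of all genes. The N-LKO livers ranked 3, 1, 4, 2 from highest to lowest for 15 of the 26 genes and for 5.20% of all genes. These patterns were chosen after the values were seen and carry no test. The 16 genes were Hmgcs1, Mvk, Pmvk and Mvd of the mevalonate steps, Idi1 and Fdps of the isoprenoid steps, Fdft1 and Sqle of squalene synthesis and oxidation, Cyp51, Tm7sf2, Msmo1, Nsdhl, Hsd17b7, Sc5d and Dhcr7 of the steps after lanosterol, and Srebf2. The highest library exceeded the lowest by more than 2 times for 9 of the 26 genes in WT livers (16.4% of all genes) and for 11 in N-LKO livers (13.9%). The widest range was that of Sqle, 5.73 times in WT and 3.89 times in N-LKO livers.

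The other 10 genes did not share the pattern. Ebp varied little between N-LKO HFD livers, at 119, 124, 123 and 119 CPM, and so did Acat1, which also serves ketone body metabolism, at 496, 518, 530 and 482 CPM. Scap, Insig1, Insig2, Lss, Acat2, Ggps1, Stard4 and Lbr were the others for which the 2 low libraries were not both lowest. N-LKO replicate 2 had the highest summed level of hepatocyte markers of the 8 HFD libraries (69367 CPM; range 52608 to 69367) and the lowest of macrophage, endothelial and lymphocyte markers (53.8, 67.1 and 9.46 CPM). WT replicate 1 ranked 3 of 8 on each of those 4 lists, and their part in the pattern was not tested. The map of HFD libraries shows the low livers as blue columns.

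**Figure D1:**
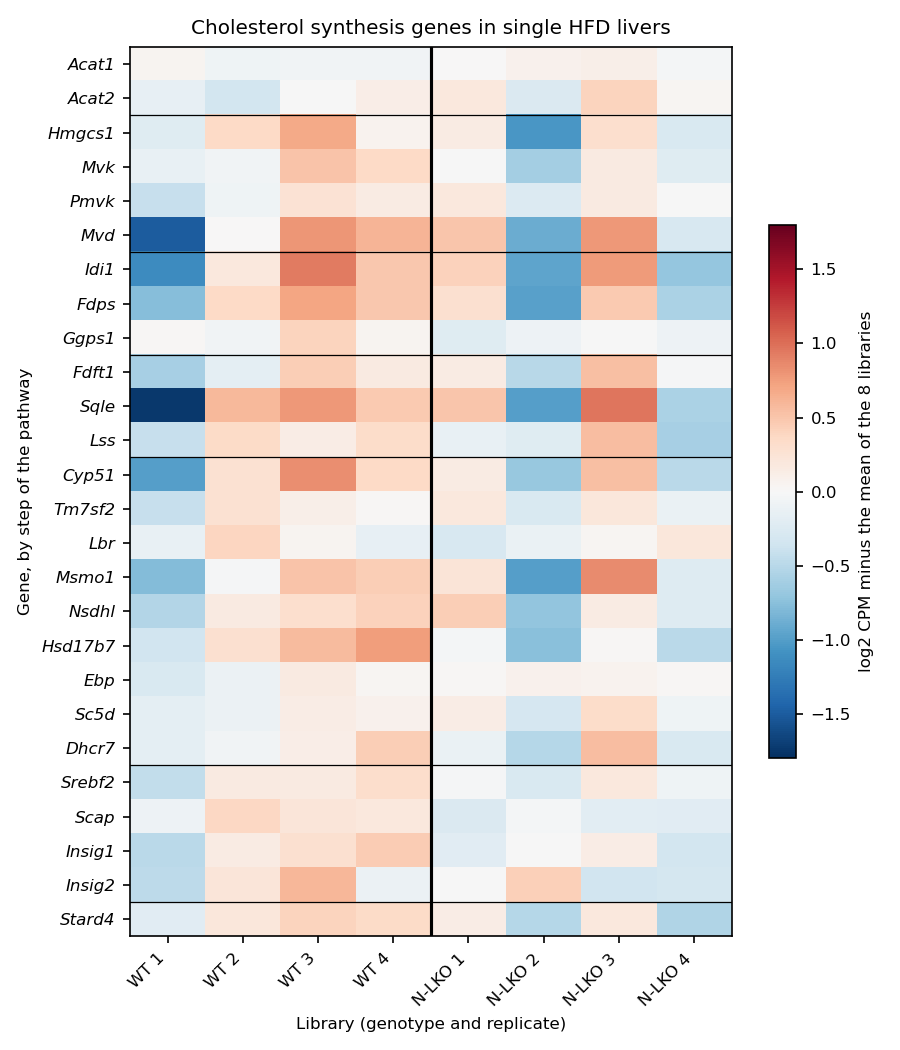
Level of each of the 26 genes in the 8 HFD livers, as log2 CPM minus the mean of the 8 libraries (colour scale), with genes ordered by step of the pathway and a vertical line between WT and N-LKO livers. WT 1 and N-LKO 2 are blue for most genes, from Hmgcs1 to Dhcr7, whereas WT 3 and N-LKO 3 are red, and the genotypes as wholes do not separate.

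Among single genes the closest to the threshold under HFD was Scap. It stood at 53.1, 72.9, 65.8 and 64.2 CPM in WT and at 47.2, 55.1, 49.5 and 49.3 CPM in N-LKO livers, so that 3 WT livers were above all N-LKO livers and WT replicate 1 was not. The log2 fold change was −0.35 (SE 0.10; 95% interval −0.56 to −0.14), with an edgeR adjusted p of 0.0562; it passed in 7 of 17 alternatives, which ran from adjusted p 0.00936 to 0.155. Hsd17b7, a 3-ketosterol reductase, stood at 39.7, 61.4, 74.7 and 85.3 CPM in WT and 49.2, 29.9, 51.1 and 36.0 CPM in N-LKO livers, and the groups overlapped through WT replicate 1. Its log2 fold change was −0.65 (SE 0.27) with an edgeR adjusted p of 0.212.

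The next genes by unadjusted p lay further from the threshold. Mvk, mevalonate kinase, stood at 4.26, 4.48, 6.66 and 5.998 CPM in WT and 4.63, 3.04, 5.21 and 3.99 CPM in N-LKO livers (edgeR adjusted p 0.368). Stard4, a cytosolic carrier of cholesterol, stood at 70.7, 93.6, 107 and 104.002 CPM in WT and 89.04, 57.0, 93.0 and 56.2 CPM in N-LKO livers (edgeR adjusted p 0.370). Ggps1 stood at 8.11, 7.63, 10.5 and 8.23 CPM in WT and 6.86, 7.48, 7.93 and 7.504 CPM in N-LKO livers (edgeR adjusted p 0.415). In each of these the groups overlapped.

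SREBP2 and its retention proteins were also examined in HFD livers. Srebf2 stood at 25.8, 39.3, 39.2 and 43.5 CPM in WT and 34.5, 28.95, 39.95 and 33.3 CPM in N-LKO livers. Insig1, itself a target of SREBP2, stood at 91.5, 142, 157 and 177 CPM in WT and 112, 127.6, 142 and 102.4 CPM in N-LKO livers. Insig2, its paralog, stood at 133, 216, 280 and 173 CPM in WT and 185.02, 249, 146 and 150 CPM in N-LKO livers. None of these passed (edgeR adjusted p 0.6997, 0.526 and 0.810), and each overlapped between genotypes, with WT replicate 1 the lowest WT liver.

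Under WD the pathway was listed at much lower levels. The tables were scaled separately and every HFD library is in the HFD table, so diet cannot be told apart from table, and the levels are set side by side with no test. In WT livers 11 of the 26 genes stood at less than 0.5 times their HFD level, where 1.19% of the 15850 genes in both fits did, and none stood above 2 times, where 19.2% did. In N-LKO livers 12 genes were below 0.5 times (3.21% of all genes) and none above 2 times (26.3%), on log2 values with 0.5 CPM added. The median log2 ratio was −0.77 over the 26 genes and 0.42 over all genes in WT livers, and −0.94 and 0.42 in N-LKO livers.

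The gap was widest for Idi1, Sqle, Msmo1 and Cyp51. In WT livers Idi1 stood at 106 ± 52.4 CPM in the HFD table and 4.26 ± 1.32 CPM in the WD table, a ratio of 25.0. Sqle stood at 32.6 ± 16.8 and 1.94 ± 1.00 CPM, a ratio of 16.8. Msmo1, the sterol C4-methyl oxidase, stood at 131 ± 46.8 and 14.8 ± 2.29 CPM, and Cyp51 at 110 ± 48.3 and 14.4 ± 2.60 CPM (SD, n = 4 and n = 3), ratios of 8.82 and 7.62. The range of single HFD livers described above did not reach the WD levels: even the lowest WT HFD liver had 39.6 CPM of Idi1, and the highest WT WD liver 5.13 CPM.

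Other genes stood at similar or higher levels in the WD table. Srebf2 was listed at 36.9 ± 7.71 CPM under HFD and 31.6 ± 3.28 CPM under WD in WT livers, and Acat2, the cytosolic thiolase that feeds the pathway, at 39.7 ± 5.29 and 37.5 ± 3.41 CPM; in both the libraries overlapped. Scap (64.0 ± 8.19 and 98.0 ± 20.8 CPM) and Ggps1 (8.63 ± 1.30 and 11.4 ± 0.685 CPM) were higher in every WT WD library than in every WT HFD library. The log2 ratio was 0.61 for Scap and 0.38 for Ggps1, where the median of all genes was 0.42. The rise of Ggps1 thus did not exceed the shift of all genes. In all, 15 of the 26 genes were lower and 2 were higher in every WT WD library than in every WT HFD library, and in N-LKO livers 19 and 3. The share of all genes that separated in this way was not determined, so these counts do not set the 26 genes apart.

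**Figure D2:**
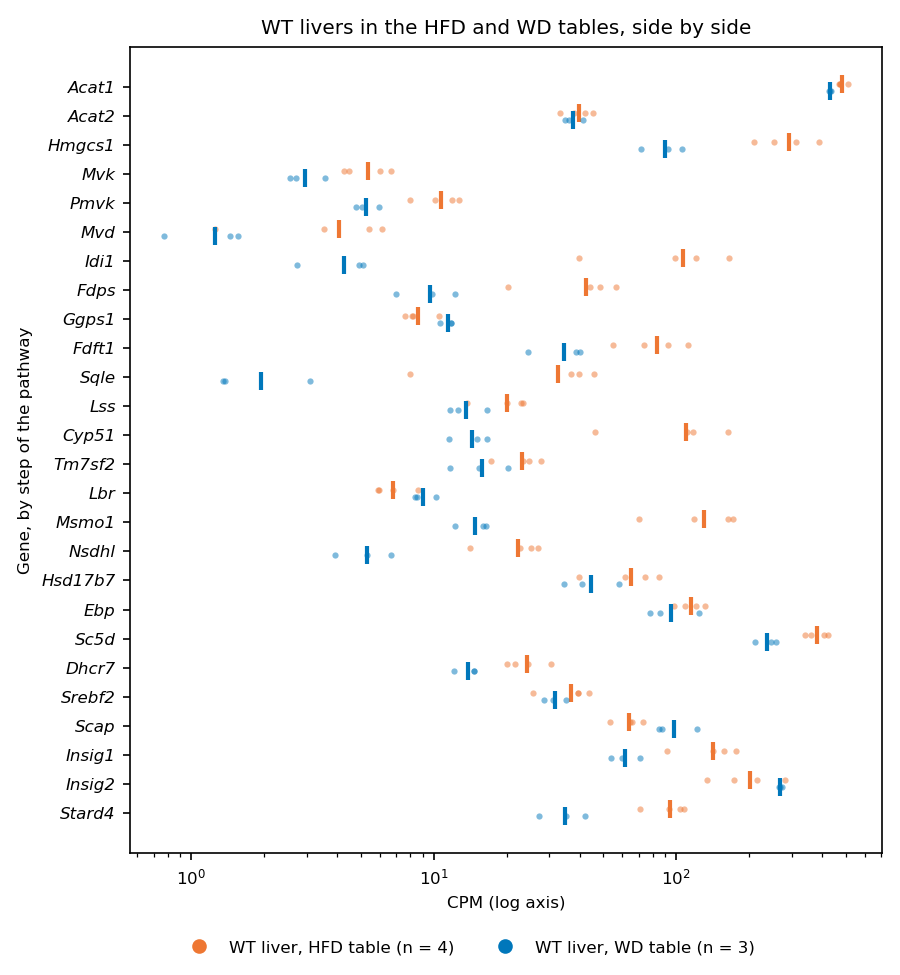
CPM of the 26 genes in WT livers of the HFD table (orange, n = 4) and the WD table (blue, n = 3) on a log axis, with points for single libraries and vertical marks for means. Idi1, Sqle, Msmo1 and Cyp51 lie furthest apart (25.0, 16.8, 8.82 and 7.62 times), whereas the points of Acat2, Srebf2 and Ebp overlap; the tables were scaled separately, and diet cannot be told apart from table.

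The genotypes were then compared within WD. None of the 26 genes passed between N-LKO and WT livers, and neither did any other gene (0% of 17829 by edgeR; 2198 genes had an unadjusted p under 0.05, and DESeq2 called 99, none of the 26). Even Nus1, the deleted gene, did not pass by edgeR, at a log2 fold change of −1.02 and without overlap. A gene that did not pass under WD was therefore not shown to be unchanged. Of the 26, 6 had an unadjusted p under 0.05: Tm7sf2, Scap, Ebp, Ggps1, Insig1 and Stard4. Without overlap between the groups, 2 genes were higher in N-LKO livers (14.3% of all genes were) and 7 were lower (13.6% of all genes): Acat1, Mvk, Tm7sf2, Ebp, Srebf2, Scap and Insig1. The median log2 fold change was −0.06, against 0.01 over all genes. A length and GC offset moved the latter to −0.29 and the former to −0.36. Cell markers differed in the same comparison, none past the threshold: all 5 hepatocyte markers had folds below 0 (median −0.58; 3 lower without overlap), and all 5 cholangiocyte and all 5 lymphocyte markers had folds above 0 (medians 0.96 and 0.71; 3 and 2 higher without overlap). Their part in the values of the 26 genes was not tested.

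Of the genes that separated downward, 3 belong to the sensing of sterols. Scap stood at 84.7, 122 and 87.4 CPM in WT WD replicates 1 to 3 and at 58.0, 68.8 and 62.8 CPM in N-LKO replicates 1 to 3, with log2 fold change −0.63 (SE 0.20) and edgeR adjusted p 0.348. Insig1 stood at 53.9, 70.8 and 59.6 CPM in WT and 53.4, 31.9 and 37.5 CPM in N-LKO livers (−0.59, SE 0.24, edgeR adjusted p 0.385). Srebf2 stood at 28.6, 35.1 and 31.2 CPM in WT and 24.5, 25.6 and 26.6 CPM in N-LKO livers (−0.31, SE 0.17, edgeR adjusted p 0.475). WT replicate 2 was the highest WT liver in all 3, and without it the values were −0.45 for Scap, −0.47 for Insig1 and −0.23 for Srebf2; for Insig1 the groups were parted by less than 1 CPM. Insig2 went the other way, at 274, 269 and 264 CPM in WT and 241, 447 and 408 CPM in N-LKO livers, and overlapped.

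The other 4 were Ebp and Tm7sf2, both late sterol enzymes, the mevalonate enzyme Mvk and the thiolase Acat1. Ebp stood at 85.4, 124 and 77.8 CPM in WT and 67.02, 54.6 and 58.3 CPM in N-LKO livers (log2 fold change −0.67, SE 0.22, edgeR adjusted p 0.349). Tm7sf2, a sterol reductase of the endoplasmic reticulum, stood at 11.7, 20.3 and 15.4 CPM in WT and 9.73, 10.7 and 9.89 CPM in N-LKO livers (−0.64, SE 0.20, edgeR adjusted p 0.348). WT replicate 2 again stood highest, and without it they were −0.45 and −0.42. Mvk stood at 3.57, 2.71 and 2.56 CPM in WT and 1.86, 1.56 and 2.50 CPM in N-LKO livers (edgeR adjusted p 0.406). Acat1 stood at 434, 427 and 431 CPM in WT and 397, 305 and 406 CPM in N-LKO livers (edgeR adjusted p 0.641).

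Of the 3 isoprenoid genes, Ggps1 and Idi1 separated upward and Fdps did not separate. Ggps1, which diverts farnesyl diphosphate into geranylgeranyl diphosphate, stood at 10.6, 11.8 and 11.8 CPM in WT and 15.7, 14.5 and 15.4 CPM in N-LKO livers (log2 fold change 0.41, SE 0.15, edgeR adjusted p 0.362). Idi1 stood at 4.90, 2.74 and 5.13 CPM in WT and 6.12, 6.89 and 6.95 CPM in N-LKO livers (0.65, SE 0.41, edgeR adjusted p 0.517). Both were higher in 3 of 3 N-LKO livers, but with a length and GC offset Ggps1 turned to −0.053. Fdps, which makes farnesyl diphosphate, stood at 6.97, 9.81 and 12.2 CPM in WT and 13.1, 9.10 and 6.96 CPM in N-LKO livers (0.0057, edgeR adjusted p 0.996). Hmgcs1, of the mevalonate steps, stood at 92.9, 71.5 and 106 CPM in WT and 94.8, 169 and 121 CPM in N-LKO livers (0.51, SE 0.23, edgeR adjusted p 0.408) and overlapped.

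An interaction term over the 14 livers asked whether the effect of genotype was the same under both diets. None of the 26 genes passed, where 2.18% of all genes did (346 of 15850 by edgeR). At an unadjusted p under 0.05 there were 3 of the 26 (Ebp, Ggps1 and Tm7sf2), against 19.8% of all genes. DESeq2 called 923 of the 15850 genes, Ebp and Ggps1 among them. For Ebp the effect was −0.67 under WD and 0.08 under HFD, where WT livers stood at 97.6, 109, 132 and 120 CPM (interaction −0.73, SE 0.19, edgeR adjusted p 0.0513). For Ggps1 it was 0.41 and −0.21 (interaction 0.65, SE 0.18, edgeR adjusted p 0.0645), but with the length and GC offset the interaction was 0.22 (edgeR adjusted p 0.663). For Tm7sf2, at 17.2, 27.6, 24.7 and 23.3 CPM in WT and 26.2, 19.0, 26.4 and 21.1 CPM in N-LKO HFD livers, the interaction was −0.61 (SE 0.25, edgeR adjusted p 0.185). Hmgcs1, at 209, 313, 388 and 253 CPM in WT and 269, 118, 300 and 200 CPM in N-LKO HFD livers, came next (0.92, SE 0.45, edgeR adjusted p 0.281), followed by Acat1, at 510, 468, 472 and 474 CPM in the WT HFD livers (−0.27, SE 0.15, edgeR adjusted p 0.315).

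**Figure D3:**
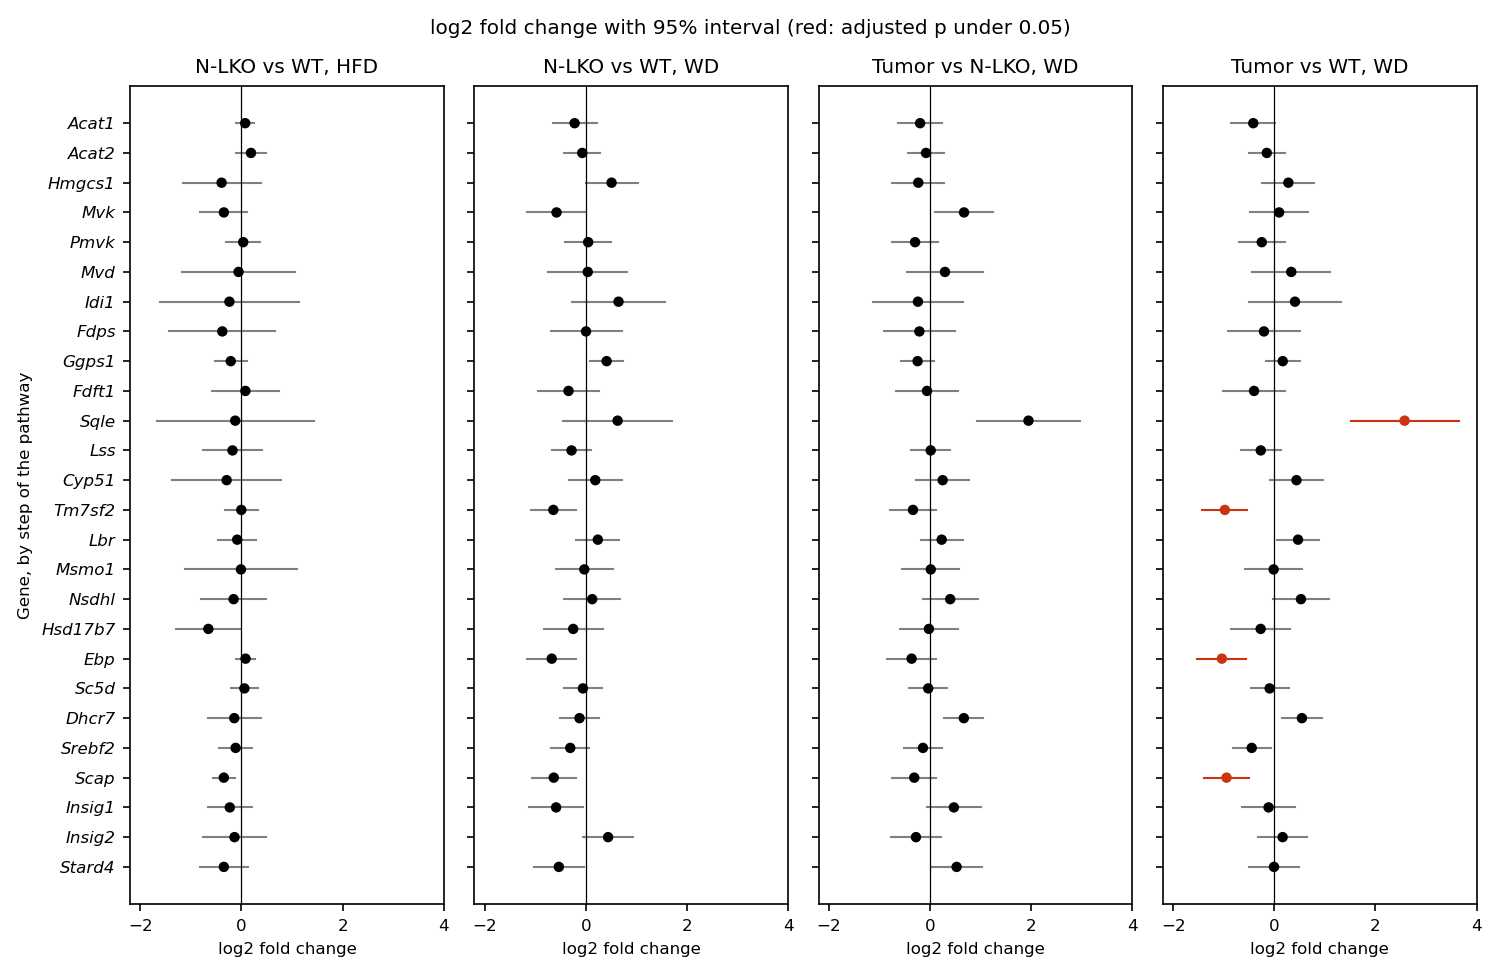
log2 fold change of each gene with its 95% interval in the 4 comparisons (red: edgeR adjusted p under 0.05; grey: not passed). Only the last panel, tumor against WT liver, holds red points, with Sqle at 2.58 and Tm7sf2, Ebp and Scap between −1.04 and −0.94; the intervals of Sqle and Idi1 under HFD are the widest of the first panel.

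Tumors were compared with both liver groups of the same diet. Against N-LKO livers none of the 26 genes passed, where 0.426% of all genes did (76 of 17829 by edgeR). DESeq2 called 1021 of the 17829 genes, Sqle and Dhcr7 among them. The 26 included 4 with an unadjusted p under 0.05, namely Sqle, Dhcr7, Mvk and Stard4, against 18.2% of all genes. Sqle, Dhcr7 and Mvk were higher in every tumor than in every N-LKO liver (11.5% of all genes were) and Tm7sf2 was lower (11.6% of all genes). Against WT livers 4 of the 26 passed, 1 higher and 3 lower, a share near the 14.9% of all genes that passed. Without overlap, Sqle and Dhcr7 were higher (17.7% of all genes) and Acat1, Tm7sf2, Ebp and Scap lower (16.4% of all genes). The comparisons share the tumors, so the results against the 2 liver groups are not independent. All 4 calls were lost without WT replicate 2, when the edgeR adjusted p ran from 0.0555 to 0.0628. WT replicate 2 had the lowest summed macrophage, stellate cell, cholangiocyte and lymphocyte markers of the WT WD livers (452, 236, 17.2 and 27.0 CPM). The medians of that group were 660, 490, 68.5 and 49.7 CPM. Its hepatocyte and endothelial sums were the group medians, and the part of cell makeup in the calls was not tested.

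Sqle, which oxidizes squalene and is a rate-limiting step of sterol synthesis, was the gene with the largest difference. It stood at 6.07, 20.4 and 8.59 CPM in tumor replicates 1 to 3, whereas N-LKO livers had 3.37, 2.70 and 3.03 CPM and WT livers 1.37, 1.36 and 3.10 CPM. Every tumor was above every liver, and tumor replicate 2 stood well above the other tumors. The log2 fold change was 2.58 (SE 0.48; 95% interval 1.51 to 3.64; edgeR adjusted p 0.0121) against WT livers and 1.95 (SE 0.45; edgeR adjusted p 0.0845) against N-LKO livers. Against WT livers it was 2.37 without WT replicate 2 (edgeR adjusted p 0.0594), and 1.87 without tumor replicate 2 (edgeR adjusted p 0.0208). Against N-LKO livers it was 2.25 without tumor replicate 1 (edgeR adjusted p 0.00975) and 1.26 without tumor replicate 2 (edgeR adjusted p 0.1903), and it passed in 2 of 19 alternatives, with edgeR adjusted p up to 0.306. Sqle is a plus-strand gene of chromosome 15 (GRCm38, 59315077 to 59331192).

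Dhcr7, which reduces 7-dehydrocholesterol to cholesterol, was the other gene that stood higher in all tumors. The tumors had 16.1, 19.7 and 24.6 CPM, N-LKO livers 12.7, 11.7 and 13.7 CPM and WT livers 14.6, 12.1 and 14.7 CPM. The log2 fold change was 0.67 (SE 0.18, edgeR adjusted p 0.101) against N-LKO and 0.55 (SE 0.18, edgeR adjusted p 0.0606) against WT livers. Without tumor replicate 1 both passed, at 0.80 and 0.68 (edgeR adjusted p 0.0128 and 0.0167), and without tumor replicate 3 neither did, at 0.50 and 0.375 (edgeR adjusted p 0.206 and 0.151). Of the alternatives, 2 of 19 passed against N-LKO and 1 of 18 against WT livers, where the length and GC offset gave 0.23 (edgeR adjusted p 0.4104).

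The 3 genes that fell against WT livers were Ebp (chromosome X of GRCm38, 8185329 to 8193512, minus strand), Tm7sf2 (chromosome 19, 6062821 to 6068373, minus strand) and Scap (chromosome 9, 110333288 to 110384950, plus strand). Ebp stood at 61.2, 39.5 and 39.0 CPM in tumors, below the WT livers given above (log2 fold change −1.04, SE 0.22, edgeR adjusted p 0.0166). Tm7sf2 stood at 8.42, 8.53 and 7.03 CPM in tumors (−0.98, SE 0.20, edgeR adjusted p 0.0155). Scap stood at 53.3, 37.7 and 61.6 CPM in tumors (−0.94, SE 0.20, edgeR adjusted p 0.0164). All 3 had their highest WT value in replicate 2, and without it they were −0.81, −0.76 and −0.76. The N-LKO livers lay between tumors and WT livers in the mean of each gene, and only Tm7sf2 was lower in every tumor than in every N-LKO liver.

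Other regulators and carriers did not pass in tumors. Srebf2 stood at 21.9, 18.4 and 29.3 CPM (log2 fold change −0.45 against WT livers, SE 0.17, edgeR adjusted p 0.101), and Insig2 at 292, 258 and 354 CPM (0.16, edgeR adjusted p 0.640; −0.23 with the offset). Insig1 stood at 48.9, 44.5 and 76.8 CPM (0.47 against N-LKO livers, SE 0.24, edgeR adjusted p 0.331). Stard4 stood at 29.7, 29.996 and 44.4 CPM in tumors, where N-LKO livers had 30.6, 20.1 and 21.7 CPM and WT livers 27.3, 42.0 and 35.3 CPM. It was 0.53 higher than in N-LKO livers on the log2 scale (SE 0.23, edgeR adjusted p 0.254) and −0.01 against WT livers (edgeR adjusted p 0.989). Mvk stood at 2.86, 3.33 and 3.23 CPM in tumors, above all N-LKO livers (0.67, SE 0.26, edgeR adjusted p 0.208) and overlapping the WT livers (0.09).

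None of the isoprenoid and thiolase genes passed in tumors. Ggps1 stood at 15.0, 11.3 and 12.1 CPM (−0.25 against N-LKO livers, edgeR adjusted p 0.411), Hmgcs1 at 105, 89.8 and 132 CPM (−0.23, edgeR adjusted p 0.637) and Idi1 at 9.87, 3.00 and 3.99 CPM (−0.24, edgeR adjusted p 0.798). Acat1 stood at 324, 243 and 401 CPM in tumors, below every WT liver (−0.42, SE 0.20, edgeR adjusted p 0.170). Hsd17b7 stood at 26.6, 43.4 and 40.5 CPM in tumors, where N-LKO livers had 27.6, 48.4 and 36.3 CPM and WT livers 34.5, 58.1 and 40.9 CPM, with overlap throughout.

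**Figure D4:**
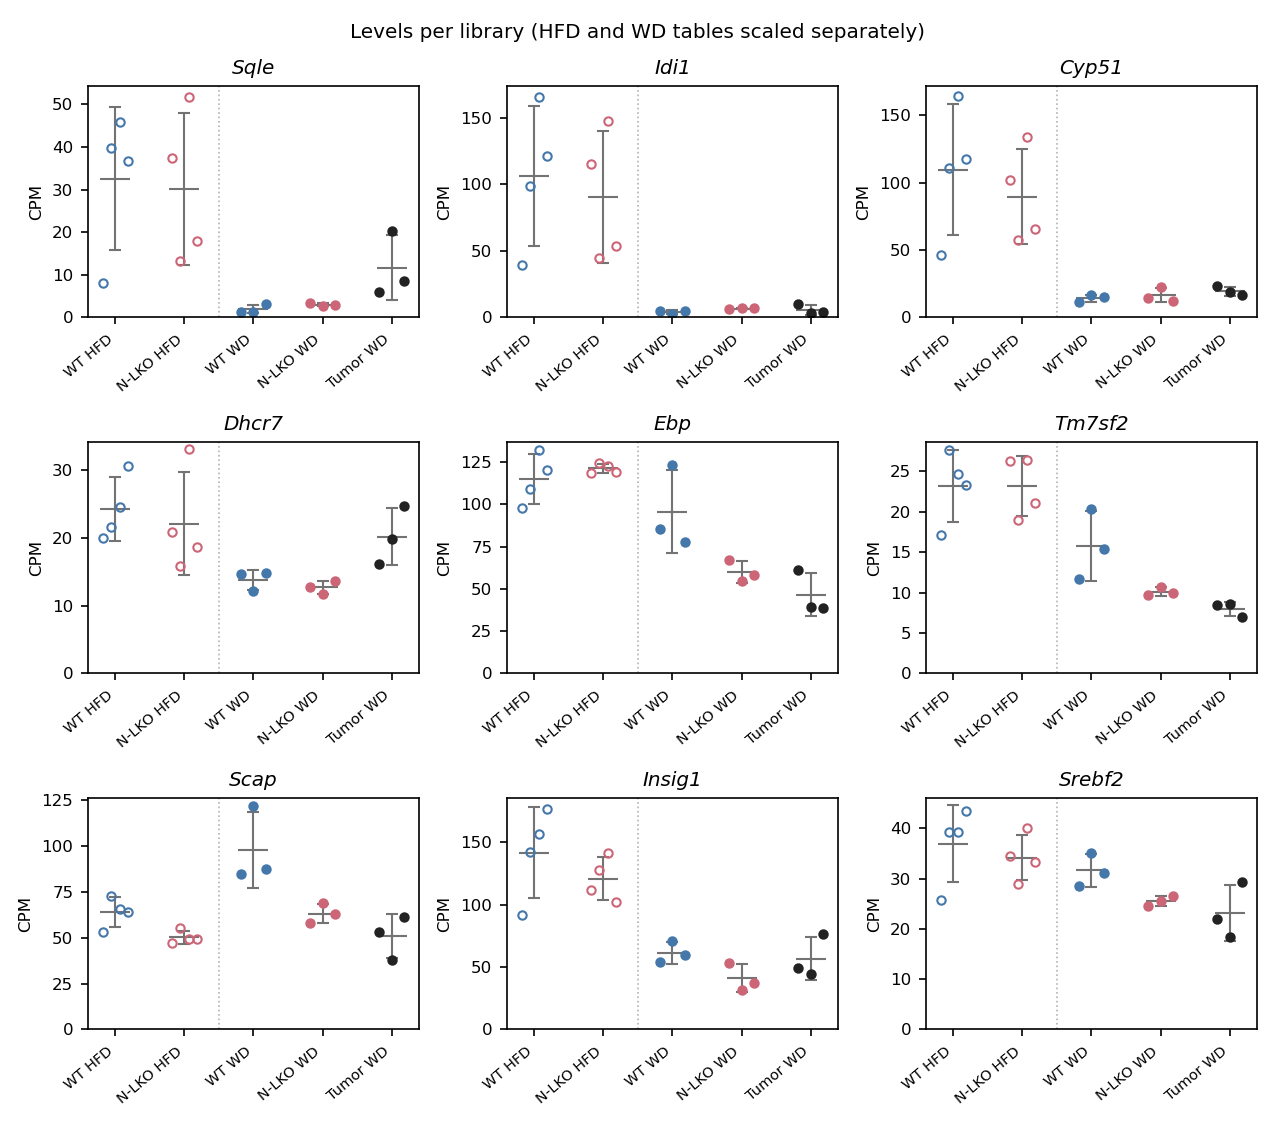
CPM of 9 genes in each library of the 5 groups (points; open for HFD, filled for WD), with the group mean and SD as a grey bar; the vertical axes start at 0. Sqle is higher in all 3 tumors than in any WD liver, Ebp, Tm7sf2 and Scap are lower in tumors than in WT WD livers, and the HFD points of Sqle, Idi1 and Cyp51 are spread over several-fold within each genotype.

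Markers of the cells in the tissue moved in the same comparison. In tumors against WT livers, 3 of the 5 hepatocyte markers were lower (Ttr, Tat and Hnf4a), and the summed level of the list ran from 31840 to 55222 CPM in tumors, and in livers from 28947 to 36616 CPM (N-LKO) and from 39868 to 50113 CPM (WT). The summed level of the cholangiocyte list (Krt19, Epcam, Krt7, Sox9, Spp1) was 195 to 522 CPM in tumors, and in livers 114.5 to 151 CPM (N-LKO) and 17.2 to 69.5 CPM (WT), and 2 of its 5 genes were higher in tumors than in WT livers. That sum was mostly Spp1 (347, 132 and 489 CPM in tumor replicates 1 to 3), and the list did not move as a whole. Against WT livers 3 of its 5 folds were above 0 and 2 below, and against N-LKO livers 2 were above and 3 below. Epcam stood at 3.36, 0.0887 and 0.104 CPM in tumors and at 1.96, 2.13 and 3.19 CPM in N-LKO livers. Of the endothelial list 2 of 5 were higher, of the lymphocyte list 1 of 5 was higher, of the macrophage list 1 of 5 was lower, and of the stellate cell list 0 of 5 passed. The endothelial list was mixed against WT livers: 3 of its 5 folds were above 0 and 2 below, the lowest at −1.39. Its member Clec4g stood at 21.2, 5.15 and 9.26 CPM in tumors, below every WT liver (29.97, 36.9 and 26.8 CPM), without passing. No marker of these lists was at 0 in a whole group. In whole tissue, fewer cells of a type and less RNA per cell cannot be told apart, and the part of cell makeup in the values of Sqle, Ebp, Tm7sf2 and Scap was not tested.

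The surroundings of the pathway were read from 3 lists. Of 9 genes whose products use farnesyl diphosphate or its close relatives, Nus1 fell under HFD (log2 fold change −1.33, SE 0.10) and in tumors against WT livers (−1.40, SE 0.16), and none of the other 8 passed between genotypes under either diet. In WD livers Nus1 had a log2 fold change of −1.02 between genotypes and did not pass. In tumors against WT livers Fnta, the shared subunit of the protein prenyltransferases, was lower (−0.61, SE 0.16, edgeR adjusted p 0.0341) and Pggt1b, the geranylgeranyl-specific subunit, was higher (0.58, SE 0.13, edgeR adjusted p 0.0183). With Nus1 included, 1 of the 9 was higher and 2 were lower, where 14.9% of all genes passed. Of 10 partners in the processing of SREBP and the sensing of sterols, none passed between genotypes and 2 passed in tumors against WT livers, both lower, where 14.9% of all genes passed in either direction. One was Faf2, part of the machinery that degrades sterol-regulated proteins (−0.68, edgeR adjusted p 0.0145). Of 10 genes of sterol storage and transport, Npc2, a lysosomal cholesterol carrier, was higher in N-LKO than in WT livers under HFD (0.37, SE 0.09, edgeR adjusted p 0.0283), and tumors had less Nr1h3, the sterol sensor LXR alpha, than WT livers (−0.56, SE 0.13, edgeR adjusted p 0.0223). No gene of the 3 lists passed between tumors and N-LKO livers, between genotypes under WD or in the interaction.

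Reads of some of these genes are shared with other loci. Hmgcs1, Fdps, Fdft1, Scap, Acat1 and Acat2 had fractional counts in all 17 libraries, the mark of reads divided between features, and their levels are uncertain to that extent. Idi1 had fractional counts in 16 libraries, Insig2 in 13 and Lbr in 12, and the same holds for them. Sqle had fractional counts in 2 libraries, Ebp in 8, Tm7sf2 in 6, and Mvk, Mvd, Nsdhl and Stard4 in none. The lowest counts behind a value were 12 for Mvd, 20 for Sqle and 33 for Mvk.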

How the data were processed

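RNA was extracted from whole liver or tumor, depleted of ribosomal RNA and sequenced as single-end reads. For each gene the authors deposited estimated counts from Partek, unscaled and not pooled, in which an expectation-maximization step divides shared reads. The study's methods name TopHat2 and the submitters' processing notes name STAR as the aligner. The notes name mm9, but gene starts matched GENCODE M21 (GRCm38) for 97.2% of HFD and 96.8% of WD genes, and positions are from that annotation.

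Estimated counts were rounded and tested on all genes with edgeR 4.0.16 in R 4.3.3 (robust quasi-likelihood F test, TMM, filterByExpr, Benjamini-Hochberg adjusted p under 0.05). Separate fits held the 8 HFD livers, the 9 WD libraries and, for the interaction, 14 livers; the common biological coefficient of variation was 0.149, 0.243 and 0.163. CPM came from unrounded counts. Standard errors were derived from F and are approximate. The labels call replicates biological. Replicate numbers did not pair the samples: correlations of same-numbered libraries ran from −0.12 to 0.11. Animal numbers in the column names differ from the replicate numbers, and whether a shared one marks 1 mouse is not stated. The study's own test used aligned reads, which were not used here. Alternatives were DESeq2 1.42.0 size factors and Wald test, other filters, a replicate block, a length and GC offset, leaving out each library and fitting only 2 groups. All 17 columns were assigned. The fits were tested on simulated data.

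The 26 genes and the other lists were chosen with earlier results of these data known. Per-sample values are given for genes that passed a test, for the 5 with the smallest unadjusted p per comparison, and for SREBP2 and its regulators. A gene of the list of SREBP processing partners is not reported here.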

Additional observations from a re-analysis of the deposited data

Results flagged for a closer look

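Acat1, the mitochondrial thiolase, stood at 510 CPM in WT HFD replicate 1, apart from the other WT HFD livers at 468 to 474 CPM. The gap took up 0.846 of the whole range of the 4 livers. Chance flags about 1 in 20 such groups, and 52 groups of 4 were examined (26 genes in WT and in N-LKO HFD livers), so a single flag is below what chance gives. The same library was the lowest WT HFD liver for 22 of the 26 genes.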

How the results depend on the processing

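Calls among the 26 genes were few and moved with the processing; the causes were not tested. For most alternatives the share of all genes called is not given, so the counts below do not set the 26 genes apart from other genes. Between N-LKO and WT livers under HFD, where none passed, 2 passed by DESeq2 (Scap and Hsd17b7), and 1, Scap, with the length and GC offset, with the replicate block and with both; leaving out a library gave 0 to 1, the 1 being Scap without WT replicate 1 (−0.43) or N-LKO replicate 2 (−0.40). Without both of these libraries, which were picked after the data were seen because the genes themselves were low in them, 2 passed: Scap (−0.48, edgeR adjusted p 0.00936) and Hsd17b7 (−0.70, edgeR adjusted p 0.0301). Under WD no alternative called any of the 26, and leaving out a library gave 0 to 0. Tumors against N-LKO livers gave 2 by DESeq2 and 0 to 2 with a library left out (Sqle and Dhcr7 without tumor replicate 1). Tumors against WT livers, with 4 calls, gave 7 with the offset, 2 when only these groups were fitted (Sqle and Ebp) and 0 to 6 with a library left out: 0 without WT replicate 2, when all genes called fell from 2657 to 607, and 6 without tumor replicate 3. The interaction gave 2 by DESeq2 and 0 to 1 with a library left out (Ebp, without WT HFD replicate 3 or WT WD replicate 3). Of 43 fold changes of single genes, 4 turned their direction in an alternative, none of them past the threshold: Ggps1 between genotypes under WD (−0.053 with the offset, −0.051 with the offset and the block), Insig2 in tumors against WT livers (−0.23 and −0.23 likewise), and with a library left out Insig2 between genotypes under HFD (−0.32 to 0.068) and Insig1 in tumors against WT livers (−0.40 to 0.0030). The replicate block, whose numbers do not pair the animals, left the counts at 1, 0, 0, 4 and 0 in the order above; a block for the 2 animal numbers that a tumor and an N-LKO liver share in the column names, added after seeing the data, called 0 of the 26 between tumors and N-LKO livers (Sqle 1.76, edgeR adjusted p 0.0987). The offset moved the median of all genes by up to −0.35 (tumors against WT livers, 0.04 to −0.31), and that of the 26 genes from −0.05 to −0.42. Levels below 5 CPM, such as those of Sqle in WD livers and of Idi1 in some WT WD livers and some tumors, rest on few counts.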
